A study of Homo sapiens with 31 samples.

Results

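The genes described here are the p53 family members TP63 and TP73, the p53 regulators MDM2 and MDM4, and the direct p53 targets CDKN1A, GDF15, SESN1, TP53I3 and ZMAT3. These 9 genes were taken by symbol from the 19221 genes of the expression table, and all 9 were measured in all 31 libraries. p53 is a transcription factor that is stabilised by DNA damage and other stresses and switches on genes for cell cycle arrest, apoptosis, DNA repair and metabolism. MDM2 is the ubiquitin ligase that marks p53 for degradation and is itself a p53 target, and MDM4 is its relative that restrains p53 without efficient ligase activity. The relatives p63 and p73 bind similar DNA sites, and p63 is the lineage factor of squamous and other stratified epithelia.

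The study sequenced mRNA to ask which genes respond to knockdown of C/EBPβ, a bZIP transcription factor encoded by CEBPB, and which differ after olaparib resistance. C13* is a cisplatin-resistant line used as an ovarian cancer model, whose origin the study itself names as a limit. It was sequenced with a stable lentiviral control shRNA (shCON, n = 7 libraries) or an shRNA against CEBPB (shCEBPB, n = 8). The second line, A2780, is from an ovarian cancer (n = 8 libraries). A2780 OlaR (8 libraries) was raised from it by culture in rising concentrations of the PARP inhibitor olaparib until it was resistant. The labels do not say that the libraries of a group came from separate cultures, so the p-values measure the spread between these libraries, and each group is 1 line. One shCON library (replicate 1) has A2780 in its cell line field and C13* in its title, and it was kept as shCON.

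Levels are FPKM, fragments scaled by the length of the gene and by the fragments of the library, so genes can be compared per length. FPKM carry no read totals, and the depth is known only relative to the other libraries, between 0.866 and 1.23. Differences are in log2(FPKM + 1), which understates the change of low genes, and were called at an adjusted p under 0.05 with limma.

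Before the members are described, the place of the 4 groups relative to each other has to be given. A2780 OlaR and C13* shCON were the closest pair, with a median absolute difference of 0.12 (log2) over 12967 genes, and 0.532% of the genes differed by a log2 difference of at least 1. The other 5 pairs had medians of 0.54 to 0.72 and 27.3% to 36.9% of genes at that size, including A2780 OlaR against its parent A2780 (0.69 and 34.8%). All 4 squamous markers were over 1 FPKM on average in shCON and OlaR, and their sum was 2450 to 3000 and 2490 to 3300 FPKM. Only SFN of them was over 1 FPKM in shCEBPB (sum 85.1 to 172) and in A2780 (sum 0.34 to 1.71), and every A2780 library listed KRT5 at 0. All 5 epithelial markers were over 1 FPKM in shCON (sum 2310 to 2560) and OlaR (2530 to 3040), 2 of 5 in shCEBPB (1260 to 1510) and 3 of 5 in A2780 (85.1 to 93.3). KRT8 and KRT18 were higher in shCEBPB than in shCON (means 882 against 459 and 535 against 320 FPKM). EPCAM, CDH1 and KRT19 were under 1 FPKM in shCEBPB. The 4 mesenchymal markers summed to 32.7 to 38.0 FPKM in shCON, 349 to 377 in shCEBPB, 857 to 898 in A2780 and 24.5 to 28.9 in OlaR. VIM carried most of this sum in shCEBPB and A2780, with means of 342 and 809 FPKM. CDH2 was lower in shCEBPB (7.56 FPKM) than in shCON (17.3), and FN1 was at 0.524 FPKM in A2780 and 6.98 to 7.93 in the other groups. The ovarian and Müllerian marker PAX8 was at 6.10 FPKM in shCON, 0.536 in shCEBPB, 0.555 in A2780 and 6 in OlaR, and WT1 was under 1 FPKM on average in every group. FOLR1 of the same list was at 1.2 FPKM in shCON, 887 in shCEBPB, 13.3 in A2780 and 0.91 in OlaR. MSLN was at 30.7, 154, 3.15 and 25.8 FPKM in the same order. The 5 markers of that list summed to 35.7 to 41.9 FPKM in shCON, 996 to 1100 in shCEBPB, 14.9 to 18.5 in A2780 and 27.1 to 38.6 in OlaR. The 4 blood markers summed to 62.5 to 70.0 FPKM in shCON, 10.5 to 13.1 in shCEBPB, 78.4 to 104 in A2780 and 37.5 to 45.3 in OlaR. CD68 carried this sum in shCON, shCEBPB and OlaR, with means of 65.4, 11.7 and 41.9 FPKM. PTPRC, CD3E and HBB were at most 0.155 FPKM in these groups. In A2780 PTPRC (CD45) was at 75.7 to 103 FPKM, while its highest value in the other 3 groups was 0.0144. The 3 endothelial markers summed to at most 2.39 FPKM in any library. The labels of A2780 OlaR as a descendant of A2780 and of shCEBPB as C13* were not checked by genotype here, so a treatment effect and a difference of cell line cannot be told apart in the comparisons below. These differences between the lines move with both comparisons below, and their part in the results was not tested. In such bulk RNA, fewer cells that express a gene and less RNA of it per cell cannot be told apart.

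The promoters of the members were read for the p53 response element, a 20-base site made of a pair of half-sites, to show which members carry such letters next to a start. RefSeq (GRCh38.p14) gave 17 promoter windows for the 9 members, each the 250 bases before a start. Allowing up to 3 mismatches and no spacer, the element was found in the windows of MDM2, SESN1 and TP73, and in 4.36% of all 35116 promoters. That share counts single windows, and a member can have more than 1 window, so it is no background for the number of members. The MDM2 stretch, chr12:68808893-68809001 on the plus strand, lies inside the gene next to its internal start and holds 2 matches, one with 2 mismatches and one with 3. The SESN1 stretch, chr6:109008989-109009067 on the minus strand, holds 1 match with 3 mismatches, and the TP73 stretch, chr1:3690566-3690645 on the plus strand, holds 1 with 2 mismatches. All 3 stretches lie within the span of their gene and outside its annotated exons. They are written 5′ to 3′ with the matches in capitals.
MDM2: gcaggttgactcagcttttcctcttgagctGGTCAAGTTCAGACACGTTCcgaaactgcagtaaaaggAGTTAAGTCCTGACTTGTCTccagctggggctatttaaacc
SESN1: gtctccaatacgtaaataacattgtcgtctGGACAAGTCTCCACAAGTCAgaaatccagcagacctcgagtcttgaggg
TP73: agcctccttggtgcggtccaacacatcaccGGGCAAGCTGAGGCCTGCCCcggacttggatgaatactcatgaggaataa

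The C/EBP consensus letters TTGCNNAA, searched on both strands, were in 9.05% of all promoters and in none of the 17 windows of the members. The TATA letters TATAAA were in 10.7% of all promoters and in 1 of the 17 windows, that of GDF15, 29 bases before its start. A match describes the letters of the window only.

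**Figure D1:**
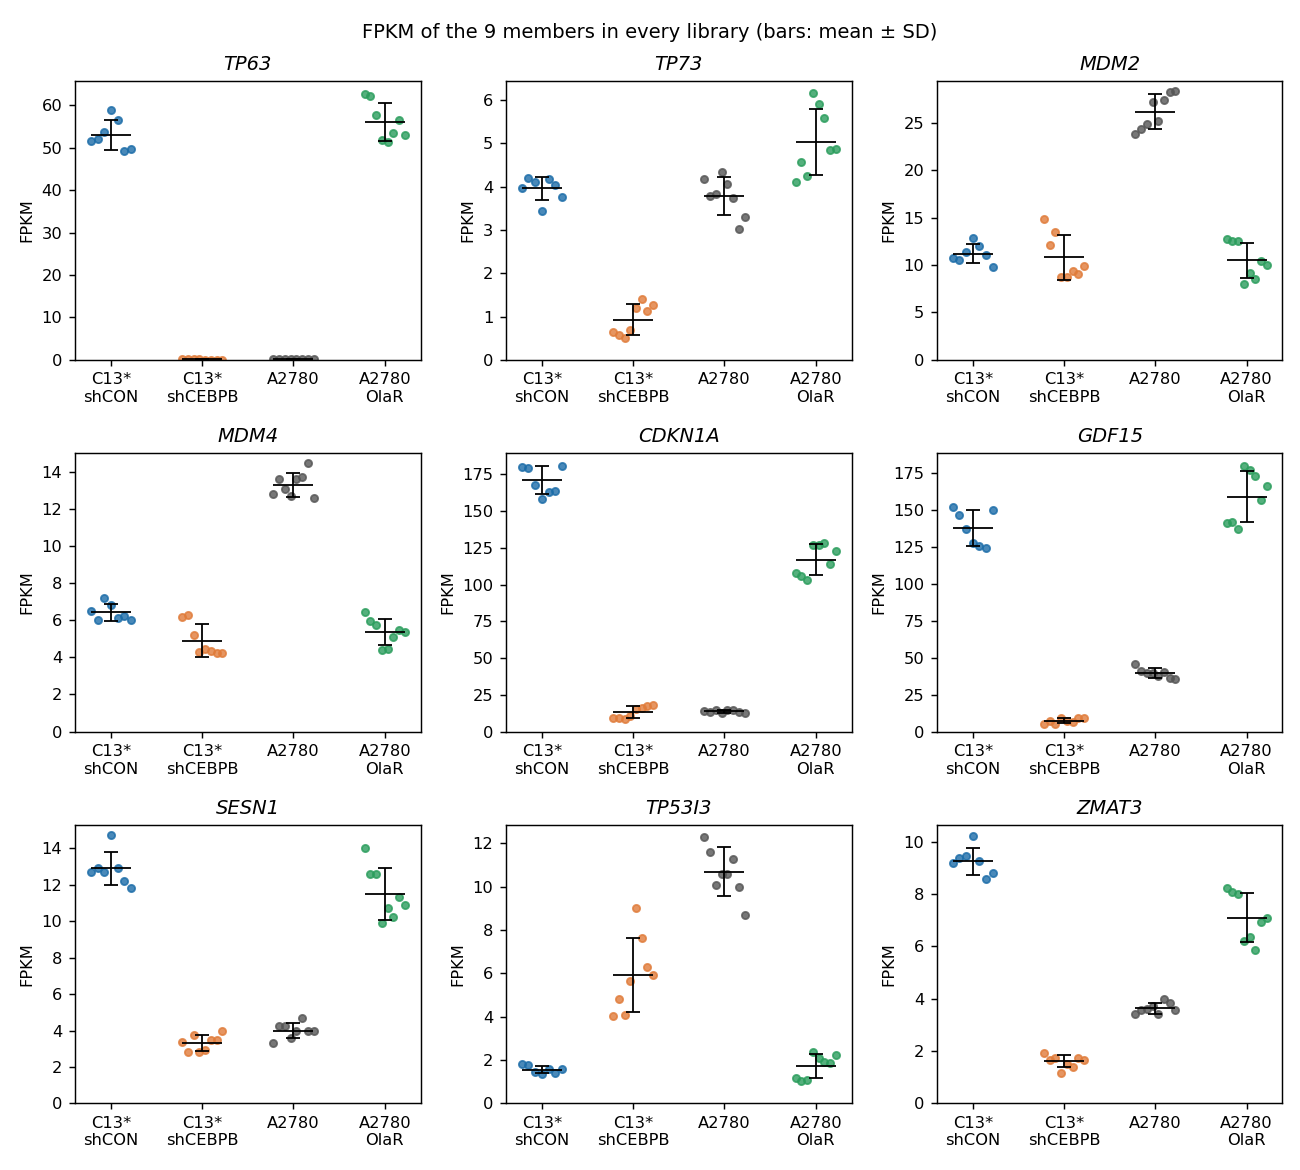
FPKM (y axis, linear, from 0) of the 9 members in each of the 31 libraries, by group, with points for libraries and black bars for the mean ± SD. TP63, CDKN1A, GDF15, SESN1 and ZMAT3 are high in C13* shCON and A2780 OlaR, TP53I3 is high in C13* shCEBPB and A2780, and MDM2 and MDM4 are highest in A2780.

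The level of CEBPB, the target of the shRNA, was read first. The 7 shCON libraries had 75.2 to 101 FPKM of CEBPB with a median of 85.4, and the shCEBPB libraries had 30.2 to 58.7 with a median of 49.5, without overlap. Its mean in shCEBPB was 0.549 of that in shCON, with a difference of -0.87 (SE 0.11, limma adjusted p = 1.42e-06). Of all genes tested in this comparison 84.7% were called and 66.0% did not overlap. A lower CEBPB level therefore goes with the label but cannot check it. In A2780 OlaR its mean was 112 ± 11.6 FPKM (SD, n = 8) against 99.7 ± 7.63 (n = 8) in A2780, a difference of 0.16 (SE 0.06, limma adjusted p = 0.0202) with overlapping libraries.

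In C13* cells, knockdown of CEBPB went with lower levels of 7 of the 9 members and a higher level of TP53I3, and MDM2 did not pass the test. GDF15 and CDKN1A, the most abundant members in shCON, were at 0.0527 and 0.0776 of their shCON means. TP63 was near 0 in shCEBPB. With 8 of 9 members called, the share called over all 12006 genes tested was 84.7%, which is near that of the members. For lower genes the background was 45.7% and for higher genes 38.9%. For 7 of 9 members no shCEBPB library reached into the range of shCON, against 66.0% of all genes. The median difference of the members was -1.68 and that of all genes tested -0.07.

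In A2780 OlaR against A2780, 6 members were higher and 3 lower. TP63, CDKN1A, GDF15, SESN1, ZMAT3 and TP73 rose, while MDM2, MDM4 and TP53I3 fell. All 9 were called, against 89.8% of the 12458 genes tested. The background was 40.1% for higher and 49.7% for lower genes. Libraries did not overlap for 8 of 9 members, against 74.1% of all genes. The median difference was 0.80 for the members and -0.12 for all genes. Rescaling moved that median of all genes to -0.18 with a common sum of FPKM, 0.01 with median-ratio scaling and -0.03 with quantile normalization, and no member changed direction in this comparison under these 3 scalings.

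**Figure D2:**
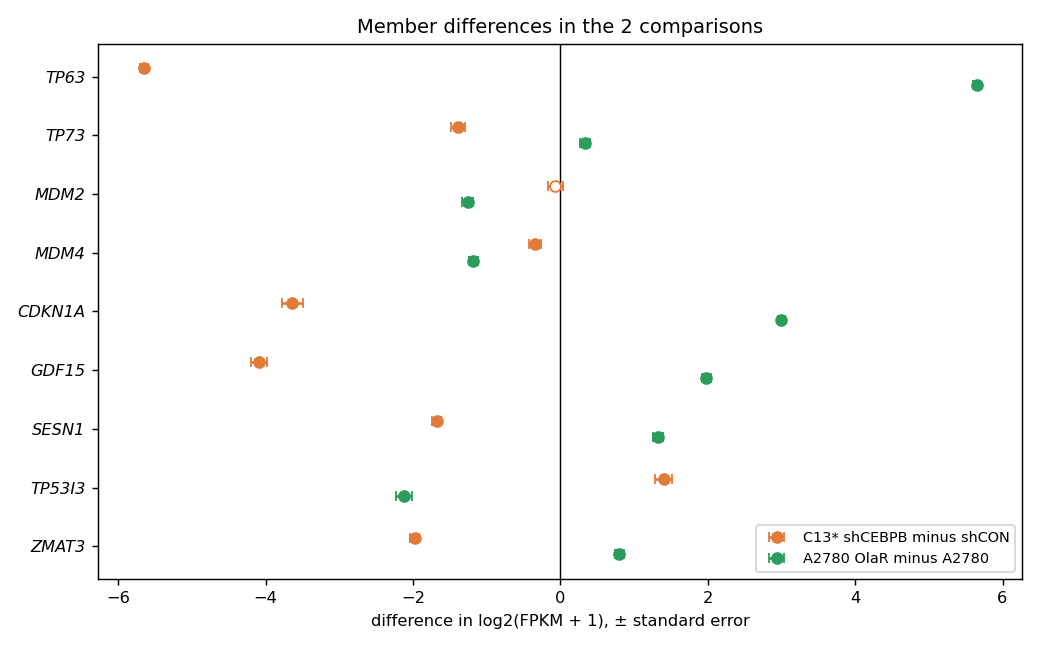
Difference in log2(FPKM + 1) (x axis) of each member (y axis) in C13* shCEBPB against shCON (orange) and A2780 OlaR against A2780 (green), with bars for the standard error and open points for values that did not pass an adjusted p of 0.05. TP63 lies at -5.65 in the first comparison and 5.65 in the second, and MDM2 in C13* is the only open point.

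TP63 encodes p63. It lies on chromosome 3 of hg38 from 189631389 to 189897276 on the plus strand, with 14 annotated transcripts and 7479 exonic bases. Its FPKM was 49.3 to 58.9 in shCON (median 52.0) and 51.4 to 62.6 in OlaR (median 55.0). In shCEBPB it was 0 to 0.198 (median 0.0738), with 1 library (replicate 7) at 0, and in A2780 it was 0.0767 to 0.174 (median 0.146). The libraries thus fell into a high pair and a low pair of groups that lay far apart. The difference was -5.65 in C13* (SE 0.05, limma adjusted p = 2.14e-23) and 5.65 between OlaR and A2780 (SE 0.05, limma adjusted p = 5.17e-26). In a single fit of all 4 groups, OlaR and shCON did not differ beyond their spread (0.08, SE 0.05, adjusted p = 0.214), and A2780 against shCEBPB did not pass in limma (0.07, SE 0.05, adjusted p = 0.135), with an unadjusted exact permutation p of 0.0472. A value per gene does not separate the long TAp63 from the short ΔNp63 transcripts.

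TP73 encodes p73, the family member with roles in neural and multiciliated cells. It lies on chromosome 1 from 3652516 to 3736201 on the plus strand, and 633 of its 6767 exonic bases are shared with TP73-AS1 on the other strand. Its FPKM in shCON was 3.44 to 4.21 (median 4.05), and shCEBPB had 0.507 to 1.40 (median 0.905). It was 3.03 to 4.34 in A2780 (median 3.81) and 4.12 to 6.16 in OlaR (median 4.86). The C13* groups stood apart, and the A2780 groups overlapped. TP73 fell by 1.39 in shCEBPB (SE 0.10, limma adjusted p = 2.73e-10) and rose by 0.33 in OlaR (SE 0.07, limma adjusted p = 0.0004, exact permutation p = 0.000932). A2780 was above shCEBPB by 1.33 (SE 0.09, limma adjusted p = 1.78e-15), and shCON and A2780 did not differ beyond their spread (0.06, SE 0.09, limma adjusted p = 0.568).

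MDM2 lies on chromosome 12 from 68808177 to 68845544 on the plus strand. Of its 8306 exonic bases, 439 are shared with a processed pseudogene on the same strand, 133 with CPM and 785 with a lncRNA on the other strand, so reads in these parts are uncertain. MDM2 was at 9.81 to 12.9 FPKM in shCON (median 11.1). In shCEBPB it was at 8.71 to 14.9 (median 9.66), which reached both below and above shCON. It was at 23.8 to 28.4 FPKM in A2780 (median 26.2) and 8.05 to 12.7 in OlaR (median 10.2), with every OlaR library below every A2780 library. The difference was -0.07 in C13* (SE 0.10, limma adjusted p = 0.545, exact permutation p = 0.554). In OlaR it fell by 1.26 (SE 0.08, limma adjusted p = 2.03e-11), to 0.400 of the A2780 mean. A2780 was the high group, and shCON, shCEBPB and OlaR did not differ beyond their spread from their neighbours in the order.

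MDM4 is found on chromosome 1 from 204516379 to 204558120 on the plus strand, with 11008 exonic bases. Its levels had the same high group as MDM2. MDM4 was at 6.01 to 7.18 FPKM in shCON (median 6.23), 4.21 to 6.28 in shCEBPB (median 4.41), 12.6 to 14.5 in A2780 (median 13.4) and 4.39 to 6.45 in OlaR (median 5.42). The C13* groups overlapped and the A2780 groups did not. MDM4 fell by 0.34 in shCEBPB (SE 0.08, limma adjusted p = 0.000786, exact permutation p = 0.00435) and by 1.18 in OlaR (SE 0.06, limma adjusted p = 3.21e-13). The call in C13* was lost under quantile normalization (-0.16, adjusted p = 0.0555) and in library numbers 1 to 3 alone (-0.13, adjusted p = 0.186).

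CDKN1A encodes p21, the inhibitor of cyclin-dependent kinases through which p53 halts the cell cycle. It lies on chromosome 6 from 36676460 to 36687337 on the plus strand, and 146 of its 2996 exonic bases are shared with the lncRNA DINOL on the other strand. Its FPKM was 158 to 181 in shCON (median 168), and shCEBPB had 8.48 to 18 (median 13.2). It was 12.5 to 14.8 in A2780 (median 13.6) and 103 to 128 in OlaR (median 118). No library of shCEBPB or A2780 came near those of shCON or OlaR. CDKN1A fell by 3.64 in shCEBPB (SE 0.14, limma adjusted p = 4.42e-14) and rose by 3 in OlaR (SE 0.05, limma adjusted p = 1.09e-20), an 8.51-fold higher mean. OlaR stayed below shCON (fell by 0.54, SE 0.11, adjusted p = 0.000252 in the fit of 4 groups), and shCEBPB and A2780 did not differ beyond their spread (adjusted p = 0.379).

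GDF15 encodes a secreted cytokine of the TGF-β superfamily that is released under cell stress. Its gene is on chromosome 19 from 18374731 to 18389176 on the plus strand, with 2087 exonic bases. GDF15 was at 124 to 152 FPKM in shCON (median 137), and shCEBPB had 4.91 to 9.37 (median 6.96). It was at 35.4 to 45.7 FPKM in A2780 (median 39.9) and 137 to 180 in OlaR (median 161). Each comparison had no overlap, and A2780 took a place of its own between shCEBPB and the high groups. GDF15 fell by 4.09 in shCEBPB (SE 0.11, limma adjusted p = 2.32e-16) and rose by 1.98 in OlaR (SE 0.06, limma adjusted p = 1.77e-16), a 4.03-fold higher mean. A2780 was above shCEBPB by 2.32 (SE 0.09, adjusted p = 1.55e-21), and OlaR against shCON did not pass in limma (0.20, SE 0.10, adjusted p = 0.0934), with an unadjusted exact permutation p of 0.0193.

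SESN1 encodes sestrin 1, which restrains mTORC1 signalling and lowers oxidative stress. It lies on chromosome 6 from 108984309 to 109094846 on the minus strand, with 363 of 7276 exonic bases shared with a lncRNA on the other strand. SESN1 was at 11.8 to 14.7 FPKM in shCON (median 12.7), and shCEBPB had 2.81 to 3.95 (median 3.42). It was at 3.34 to 4.70 FPKM in A2780 (median 3.97) and 9.89 to 14 in OlaR (median 11.1). High and low groups did not overlap. SESN1 fell by 1.68 in shCEBPB (SE 0.06, limma adjusted p = 2.79e-14) and rose by 1.32 in OlaR (SE 0.07, limma adjusted p = 3.6e-13). shCON against OlaR did not pass in limma (0.15, SE 0.07, adjusted p = 0.0814), with an unadjusted exact permutation p of 0.0488, while A2780 was above shCEBPB by 0.21 (SE 0.07, adjusted p = 0.00407) with overlapping libraries.

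ZMAT3 encodes a zinc finger protein that binds RNA and takes part in splicing and mRNA stability. The gene is on chromosome 3 from 178960121 to 179072215 on the minus strand, with 11298 exonic bases. ZMAT3 was at 8.56 to 10.2 FPKM in shCON (median 9.26), and shCEBPB had 1.18 to 1.93 (median 1.67). It was at 3.40 to 4 FPKM in A2780 (median 3.58) and 5.87 to 8.24 in OlaR (median 7.01). Its 4 groups formed 4 separate levels with no overlap between neighbours. ZMAT3 fell by 1.98 in shCEBPB (SE 0.06, limma adjusted p = 5.85e-16) and rose by 0.80 in OlaR (SE 0.06, limma adjusted p = 2.22e-10), a 1.95-fold higher mean. OlaR was below shCON (fell by 0.35, SE 0.06, adjusted p = 2.84e-05), and shCEBPB was below A2780 (fell by 0.84, SE 0.06, adjusted p = 8.94e-15).

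TP53I3 encodes a quinone oxidoreductase-like enzyme that p53 induces in oxidative stress and apoptosis. Its gene is on chromosome 2 from 24077433 to 24085861 on the minus strand, and 80 of its 2312 exonic bases are shared with FAM228B on the other strand. TP53I3 was at 1.34 to 1.80 FPKM in shCON (median 1.57), and shCEBPB had 4.04 to 9 (median 5.80). It was at 8.68 to 12.3 FPKM in A2780 (median 10.6) and 1.02 to 2.37 in OlaR (median 1.90). Its high and low groups were swapped against those of the other 4 targets, with A2780 highest. TP53I3 rose by 1.40 in shCEBPB (SE 0.12, limma adjusted p = 7.3e-09), a 3.79-fold higher mean, and fell by 2.12 in OlaR (SE 0.11, limma adjusted p = 2.5e-13). OlaR and shCON did not differ beyond their spread (0.06, SE 0.12, adjusted p = 0.741), and shCEBPB was below A2780 (fell by 0.78, SE 0.12, adjusted p = 3.29e-07).

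For members whose libraries did not overlap, the exact permutation p was the smallest the design allows, 0.000311 in C13* and 0.000155 in A2780. In the fit of 4 groups, 4 of 9 members differed between OlaR and shCON (37.7% of all 12967 genes did), and none of the 9 reached a log2 difference of 1. These were TP73 (0.28, adjusted p = 0.0166), MDM4 (-0.23, adjusted p = 0.0133), CDKN1A and ZMAT3. Between shCEBPB and A2780, 7 of 9 members differed (88.0% of all genes), and TP63 and CDKN1A did not pass. The members that separated shCEBPB most from A2780 were GDF15 (-2.32), TP73 (-1.33), MDM4 (-1.29) and MDM2 (-1.23). The comparisons share libraries and are given side by side only.

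Libraries of 1 group were not alike in all respects. The code of each library carries a number, and in A2780 OlaR the libraries numbered 1 to 3 and those numbered 4 to 8 did not overlap for any of the 9 members (51.5% of all 12967 genes). In libraries 4 to 8, TP73, CDKN1A, GDF15 and TP53I3 were higher, and TP63, MDM2, MDM4, SESN1 and ZMAT3 were lower. The same split held for 5 of 9 members in shCEBPB (47.0% of all genes), for 1 of 9, MDM2, in A2780 (18.9%) and for 0 of 9 in shCON (4.86%). In shCEBPB, TP73, CDKN1A and TP53I3 were higher in libraries 4 to 8, and MDM2 and MDM4 were lower. CDKN1A was at 8.48 to 9.57 FPKM in libraries 1 to 3 of shCEBPB and at 10.9 to 18 in libraries 4 to 8. TP53I3 was at 1.02 to 1.18 FPKM in libraries 1 to 3 of OlaR and at 1.88 to 2.37 in libraries 4 to 8. The labels do not say what the numbers stand for, and the share of all genes shows that the split was not particular to the members.

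**Figure D3:**
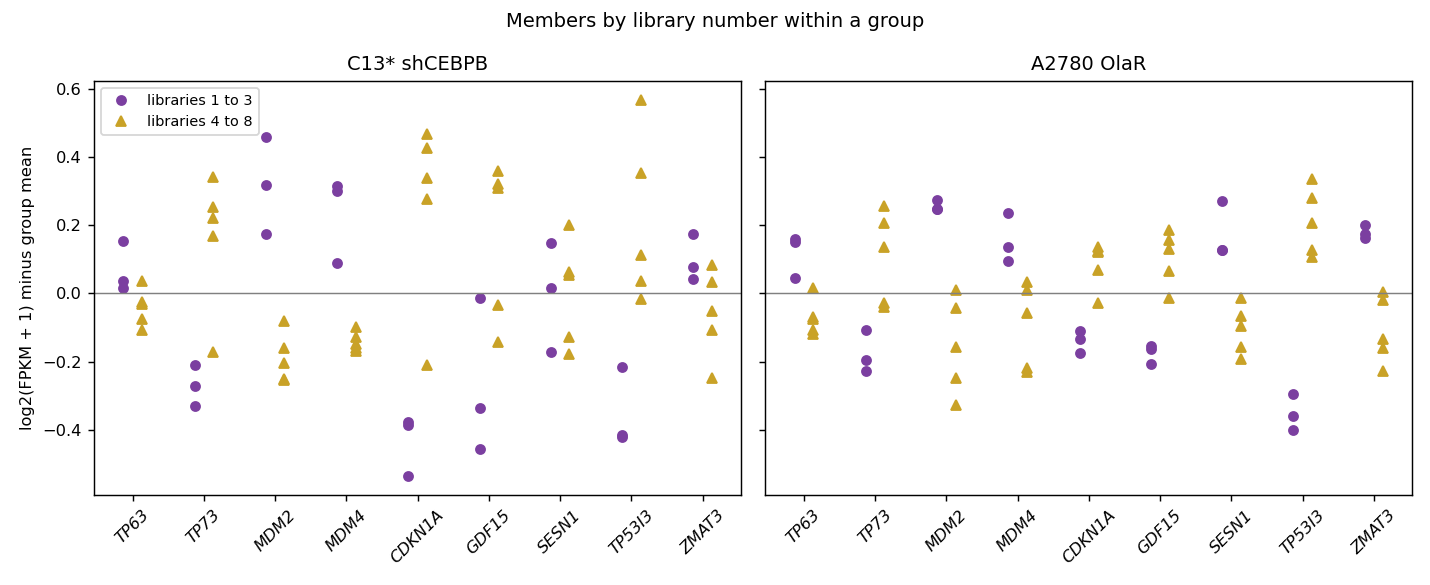
Value of each member (x axis) in each library as log2(FPKM + 1) minus the mean of its group (y axis), for C13* shCEBPB and A2780 OlaR, with circles for libraries 1 to 3 and triangles for libraries 4 to 8. In OlaR the ranges do not overlap for any member, with MDM2 0.41 lower and TP53I3 0.56 higher on average in libraries 4 to 8.

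The split moved with the length of genes. The genes were cut by exonic length into 3 classes of like size. Among the longest (over 6971 bases), the median difference of libraries 4 to 8 from 1 to 3 was -0.09 in OlaR and -0.10 in shCEBPB. Among the shortest (up to 3983 bases) it was 0.06 and 0.07, and in shCON and A2780 the medians lay between -0.04 and 0.02. CDKN1A, GDF15 and TP53I3 belong to the shortest class, and TP63, MDM2, MDM4, SESN1 and ZMAT3 to the longest. TP73, with 6767 exonic bases, is near the upper end of the middle class. It was higher in libraries 4 to 8 by 0.28 in OlaR and 0.43 in shCEBPB. The split of the members in OlaR ran from -0.41 for MDM2 to 0.56 for TP53I3, and the part of length in it was not tested.

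MDM2 was the member whose comparison turned on this split. In shCEBPB it was at 12.1 to 14.9 FPKM in libraries 1 to 3, above the 10.5 to 11.4 of shCON with these numbers, and at 8.71 to 9.95 in libraries 4 to 8, against 9.81 to 12.9 in shCON. Within libraries 1 to 3 MDM2 rose by 0.28 (limma adjusted p = 0.00953), and within 4 to 8 it fell by 0.28 (limma adjusted p = 0.00229). In OlaR it was at 12.5 to 12.7 FPKM in libraries 1 to 3 and at 8.05 to 10.4 in libraries 4 to 8, below A2780 in both. TP73 in OlaR was above A2780 by 0.11 in libraries 1 to 3, which did not pass (limma adjusted p = 0.113). For the other members, direction and call of both comparisons were as above within each range, apart from MDM4 in C13*.

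The other genes of the pathway were taken from lists of p53 targets and regulators. These lists, and the p63 list below, were chosen with earlier results of these data known. Their counts therefore describe the listed genes and are no independent test of the pathway. In C13*, 35 of 42 targets tested fell in shCEBPB, 6 rose and 1 did not pass, with a median of -1.18 against -0.07 over all genes. Of all genes tested 45.7% fell and 38.9% rose. In OlaR, 27 of 42 rose, 11 fell and 4 did not pass, with a median of 0.47 against -0.12. Of all genes tested 40.1% rose and 49.7% fell, and the share of targets called in either direction was near the 89.8% of all genes. These shares of all genes are also the background for the counts of the single lists below. Under the 3 other scalings and within each library range, 34 or 35 fell and 4 to 7 rose in C13*, and 27 to 30 rose and 9 to 13 fell in OlaR. Under these 5 alternatives, no target that was called above and in the alternative changed its direction.

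The cell cycle targets were lower in shCEBPB without exception (7 of 7, median -3.19), against 45.7% of all genes. BTG2, an antiproliferative factor, was at 3.75 to 5.27 FPKM against 55.4 to 61.2 in shCON (-3.40, limma adjusted p = 5.82e-19). PLK2, a polo-like kinase, was at 10.1 to 18.5 FPKM against 167 to 175 (-3.55, limma adjusted p = 1.13e-16). In OlaR 6 of 7 were higher (median 0.89), and GADD45A, named for being the exception, fell by 0.31 (limma adjusted p = 0.00053). BTG2 was at 43.2 to 51.0 FPKM in OlaR against 5.51 to 6.71 in A2780 (2.76, limma adjusted p = 1.17e-21). SFN, which encodes 14-3-3σ and is also a squamous marker, was at 810 to 1240 FPKM against 0.34 to 1.71 (8.89, limma adjusted p = 1.22e-21).

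Of the 14 apoptosis genes, 12 were tested. In shCEBPB 11 fell and 1 rose (median -0.90), the last being AEN, named for being the exception (0.21, limma adjusted p = 0.00297). TP53INP1, which acts in p53-driven cell death, was at 3.98 to 4.77 FPKM in shCON and at most 0.0403 in shCEBPB (-2.40, limma adjusted p = 3.09e-20). PIDD1, the scaffold of the caspase-2 complex, was at 5.31 to 9.15 FPKM against 36.0 to 45.2 (-2.33, limma adjusted p = 3.27e-13). In OlaR 7 rose, 3 fell and 2 did not pass (median 0.36). The death receptor genes went apart there. TNFRSF10A was at 12.4 to 17.8 FPKM in OlaR and at most 0.0272 in A2780 (4.03, limma adjusted p = 9.07e-22), and TNFRSF10B was at 38.2 to 41.7 against 86.4 to 95.9 (-1.19, limma adjusted p = 3.24e-18). PIDD1 rose by 2.05 (limma adjusted p = 4.26e-16).

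All 4 genes of DNA repair and nucleotide supply rose in OlaR (median 1.04), 3 of 4 in libraries 4 to 8 alone, and 3 of 4 fell in shCEBPB (median -0.78). POLH, the translesion polymerase η, was at 9.71 to 11.7 FPKM in OlaR against 3.25 to 3.83 in A2780 (1.34, limma adjusted p = 1.6e-16) and at 3.65 to 4.57 in shCEBPB against 11.3 to 12.9 in shCON (-1.35, limma adjusted p = 6.84e-15). RRM2B, the p53-inducible ribonucleotide reductase subunit, fell by 1.57 in shCEBPB (limma adjusted p = 5.06e-14). DDB2, a damage sensor of nucleotide excision repair, was at 47.3 to 51.9 FPKM in OlaR against 19.8 to 23.5 in A2780 (1.11, limma adjusted p = 1.97e-16). It was the gene that did not pass in C13* (0.12, limma adjusted p = 0.134).

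The metabolism, redox and growth control genes had 1 higher, 3 lower and 2 not passed of 6 tested in OlaR (median -0.60), and 3 higher and 3 lower in libraries 4 to 8 alone. SESN2, the relative of SESN1, was at 7.62 to 9 FPKM in OlaR against 40.8 to 45.1 in A2780 (-2.24, limma adjusted p = 3.72e-21), while SESN1 rose. PRKAB1, a subunit of AMPK, fell by 1.17 (limma adjusted p = 1.46e-15), and GLS2, the liver-type glutaminase, rose by 0.26 (limma adjusted p = 1.95e-05). In shCEBPB 5 fell and 1 rose (median -0.55). SESN2 fell there by 1.61 (limma adjusted p = 1.6e-15), and GLS2 was at 0.643 to 1.19 FPKM against 14 to 16.6 in shCON (-3.11, limma adjusted p = 1.04e-18).

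Among the 13 other targets, 9 fell and 4 rose in shCEBPB (median -1.62), and 9 rose and 4 fell in OlaR (median 1.26). TRIM22, an interferon- and p53-induced gene, was at 15.2 to 18.5 FPKM in shCON and 13.4 to 17.4 in OlaR, and at most 0.0668 in shCEBPB and 0.172 in A2780. It was low in the groups in which TP63 was low. CMBL rose in shCEBPB by 1.47 (limma adjusted p = 2.55e-14), and STEAP3, a metalloreductase gene, by 1.28 (limma adjusted p = 8.26e-15). DRAM1, an autophagy regulator, fell by 1.12 in OlaR (limma adjusted p = 1.08e-14), and FUCA1, a lysosomal fucosidase, by 1.08 (limma adjusted p = 3.16e-15).

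**Figure D4:**
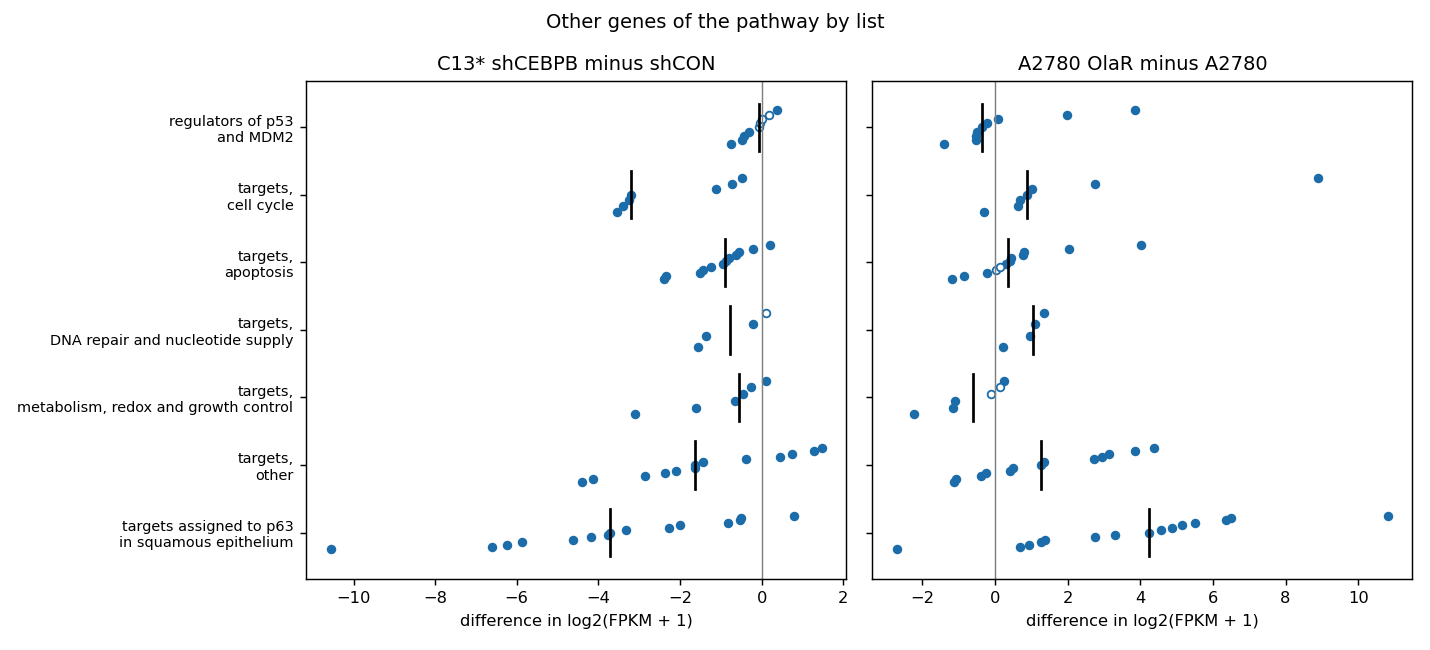
Difference in log2(FPKM + 1) (x axis) of each other gene of the pathway, by list (y axis), in C13* shCEBPB against shCON (left) and A2780 OlaR against A2780 (right), with filled points for genes that passed an adjusted p of 0.05, open points for others and a black line at the median of the list. The p63 list has the medians farthest from 0, -3.72 and 4.24.

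Of the genes assigned to p63 in squamous epithelium, 14 of 15 fell in shCEBPB and 1 rose (median -3.72), against 45.7% and 38.9% of all genes. In OlaR 14 rose and 1 fell (median 4.24), against 40.1% and 49.7% of all genes. KRT5, a basal keratin, was at 1370 to 1630 FPKM in shCON and 1620 to 1990 in OlaR, was at most 0.0416 in shCEBPB, and every A2780 library listed it at 0. TRIM29 was the gene that rose in shCEBPB (0.80, limma adjusted p = 6.49e-07). FGFR2, a fibroblast growth factor receptor, was the gene that fell in OlaR (-2.70, limma adjusted p = 3.17e-24). This list shares KRT5, KRT14 and DSG3 with the squamous markers.

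Of the regulators of p53 and MDM2, 1 of 9 tested rose in C13*, 4 fell and 4 did not pass, against 84.7% of all genes called, and their median of -0.07 was that of all genes. PPM1D, the phosphatase WIP1 that dampens p53 signalling, rose by 0.38 (limma adjusted p = 2.24e-07). PPP1R13L, which encodes the p53 inhibitor iASPP, fell by 0.76 (limma adjusted p = 2.93e-07), and the kinase gene HIPK2 by 0.48 (limma adjusted p = 0.000103). In OlaR 3 rose and 6 fell (median -0.36), while 89.8% of all genes were called. CDKN2A, whose ARF product binds MDM2, was at 329 to 477 FPKM in OlaR against 24.5 to 31.3 in A2780 (3.85, limma adjusted p = 4.79e-19). PPP1R13L rose by 1.98 (limma adjusted p = 8.19e-17). The ubiquitin ligase gene RCHY1 fell by 1.41 (limma adjusted p = 1.15e-14), and TP53BP2, which encodes ASPP2, by 0.53 (limma adjusted p = 1.14e-09). A value per gene does not separate the ARF and p16 transcripts of CDKN2A.

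The genes most like a member were sought among 12966 genes, by the mean absolute difference of log2(FPKM + 1) over the 31 libraries after centring each gene. CA2 (0.14), WFDC2 (0.14) and RAC2 (0.16) were nearest to TP63, and their means were at 39.9 to 62.4 FPKM in shCON, 40.8 to 62.5 in OlaR and at most 0.106 in the other groups. SLC47A2 (0.18) and ARTN (0.18) were among the nearest to CDKN1A. BSPRY (0.19), PSMB9 (0.22) and BCAM (0.22) were nearest to GDF15, each with A2780 between shCEBPB and the high groups. TMEM8A (0.15), ZBED3 (0.15) and NAT8L (0.16) were nearest to TP53I3, and all 3 were highest in A2780. The 31 libraries come from 4 groups, so a small distance mostly reflects a like set of group means.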

How the data were processed

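mRNA-seq libraries of TRIzol-extracted RNA were sequenced by the authors as 150-bp paired ends, mapped to hg38 with TopHat and counted with HTSeq. The deposited values are FPKM in 1 table, and the tool, annotation and strand setting behind them are not given in the sources used here. The authors called DEGs with edgeR on counts, which FPKM do not allow. Of 19225 entries, 4 were dropped because their symbol occurred more than once.

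Groups came from the labels. The deposited FPKM were put on a log2(FPKM + 1) scale, and genes that reached 1 FPKM in 7 (C13*) or 8 (A2780) libraries or more were tested with limma 3.58.1 in R 4.3.3 (eBayes with trend, two-sided, Benjamini-Hochberg over all genes tested) within the 2 groups of a comparison. In data simulated for the C13* comparison (12006 genes, 200 changed), 191 changed genes were recovered, and 196 of 200 for the A2780 comparison (12458 genes). False calls were 8 and 11 (4.02% and 5.31% of calls). The simulated noise was normal and independent for each gene and library, without a split by library number. With so few genes changed, these shares do not give the error rate of the calls in the data. Members also had an exact two-sided permutation test of the mean difference. The order of the groups came from 1 fit of all 4. The depth of a library relative to the others came from the smallest step of FPKM in 2181 low genes, taken as 1 read. Of 24656 values, 84.5% were within 0.1 of a whole number of steps. The values that set the step are among them, so this share is not an independent check. Reads were not recovered from FPKM, so no counting error is given.

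Positions and exons are from GENCODE 44 on hg38, by symbol, and exonic lengths matched 95.9% of the 12967 genes. The FPKM may rest on another annotation. Promoters are from RefSeq. The members, the gene lists and the markers were chosen with earlier results of these data known. Besides the members, the genes named per list and comparison are the 2 largest rises and the 2 largest falls among called genes without overlap, and single exceptions, which were chosen after their values were seen. Some genes that this rule or the likeness measure picks are not reported here. Of 10 regulators 9 were in the table, and of 45 targets 42 were tested. Likeness was computed for the 4 members with the widest range of group means.

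Alternatives were pseudocounts of 0.1 and 0.01, no filter and a filter at 5 FPKM, a common sum, median-ratio and quantile scaling, replicate blocks, the library ranges, 1 fit of 4 groups, an adjusted p under 0.01 and a log2 difference of at least 1. The fit without shCON replicate 1 was added after seeing the data. Within a comparison, same-numbered libraries of its groups did not deviate together (mean correlation -0.148 in C13* and -0.233 in A2780). Figures were drawn with matplotlib 3.10.9, and tables with pandas 2.3.3, numpy 2.4.6 and Python 3.11.15.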

Additional observations from a re-analysis of the deposited data

Results flagged for a closer look

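SESN1 in C13* shCON replicate 4 was at 14.7 FPKM, while the other 6 libraries of that group were at 11.8 to 12.9. Its gap to the nearest library was 0.622 of the range of the group, above Dixon's critical value. It was the only 1 of 36 groups of member values to pass, and chance gives about 1 in 20. SESN1 in shCEBPB was at most 3.95 FPKM, so the call does not turn on this library.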

How the results depend on the processing

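Of 240 member values under the alternatives, 234 kept direction and side of the threshold. The exact permutation test is counted among these alternatives. The 2 changes of the filter, the fit of 4 groups and the permutation test leave the difference of a member as it is. Under these only the side of the threshold could change. MDM2 in C13* turned to 0.01 under quantile normalization and to 0.28 in libraries 1 to 3, and passed the test in libraries 4 to 8 (-0.28). MDM4 in C13* lost its call under quantile normalization (-0.16) and in libraries 1 to 3 (-0.13), and TP73 in OlaR in libraries 1 to 3 (0.11). The cause was not tested. Requiring also a log2 difference of at least 1 left 3539 of 10166 called genes in C13* and 4446 of 11190 in A2780, as fewer genes reach that size. Without shCON replicate 1, 8 members were called in C13*. With a replicate block, 9885 genes were called in C13* and 10960 in A2780, and the members called were 8 and 9. Same-numbered libraries of the 2 groups of a comparison had correlations from -0.512 to 0.462 in C13* and from -0.589 to 0.125 in A2780. No such correlation was computed between shCEBPB and OlaR. In both of these groups TP73, CDKN1A and TP53I3 were higher, and MDM2 and MDM4 lower, in libraries 4 to 8 than in 1 to 3. Values under 1 FPKM, such as TP63 in shCEBPB and A2780, rest on few reads, and with pseudocounts of 0.1 and 0.01 the differences of TP63 were -8.28 and -9.63 in C13* and 7.93 and 8.66 in OlaR. Each group is 1 line, and line and treatment cannot be told apart.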
